A study of Arabidopsis thaliana with 12 samples.

Results

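The transcripts of the chloroplast and mitochondrial genomes of Arabidopsis thaliana were followed in whole seedlings. They were taken as every row of the raw count table with an ATCG (chloroplast, here plastid) or ATMG (mitochondrial) identifier and at least 100 counts summed over 12 libraries. This gave 86 rows of the 32833 in the table: 72 of the 133 plastid rows and 14 of the 152 mitochondrial rows. The lowest sums kept were 102 counts in the plastid and 117 in the mitochondrial set, and the highest sums left out were 95 and 89. Of the rows left out, 24 plastid and 100 mitochondrial rows had no count in any library. The 86 rows held 99.1% of all plastid and 99.4% of all mitochondrial counts.

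The study compared the line bbx28-5 with its wild type, the accession Col-0. It bears on the part of BBX28, a zinc finger protein of the B-box family, in the response to shade. Seedlings of either genotype grew for 2 short days (10 h light, 14 h dark) at 22 °C on agar and water, after 4 days of cold in the dark, a 5 h pulse of white light and 14 h of dark, and on the next day received 4 h of simulated shade or stayed in white light. The groups were bbx28-5 in shade, bbx28-5 in white light, Col-0 in shade and Col-0 in white light, with 3 biological replicates and 3 libraries each. Shade had 20 µmol per square metre per second of photosynthetically active radiation, with 0.8 of red, 1.3 of blue and 5.5 of far-red light, against 90, 9.13, 8.1 and 8.3 in white light. What the bbx28-5 allele changes in the gene is not stated in the labels. BBX28 RNA was at 160, 210 and 144 CPM in shade and 108, 104 and 99.8 CPM in white light in the libraries labelled bbx28-5, against 108, 115 and 104 CPM in shade and 72.4, 74.2 and 64.1 CPM in white light in Col-0. It was thus higher, not lower, in the libraries labelled bbx28-5 (log2 difference 0.65 in shade and 0.57 in white light, edgeR adjusted p = 0.00122 and 0.0101), and its level does not check that label. Below, bbx28-5 stands for the libraries so labelled.

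The plastid genome encodes core subunits of the photosystems, the cytochrome complex, the ATP synthase and Rubisco, together with ribosomal proteins, a bacterial-type RNA polymerase, rRNAs and tRNAs, while the nucleus encodes most other subunits. That polymerase needs sigma factors made in the nucleus, and phage-type polymerases from the nucleus transcribe other plastid genes and the whole mitochondrial genome. In both organelles a poly(A) tail marks RNA for decay, and most organelle RNA carries none. These libraries came from a stranded kit that selects poly(A) RNA, so the counts give the organelle RNA that was captured, and levels here are not the abundance of a transcript in the organelle.

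Libraries held 10.6 to 14.3 M (mega) counts. Levels are CPM, counts per M of a library size adjusted with TMM factors (trimmed mean of M values), and 3 counts correspond to 0.200 to 0.346 CPM. The TMM factors were 0.790 to 0.867 in bbx28-5 shade libraries and 1.01 to 1.08 in all others. Replicate 2 of bbx28-5 in shade stood apart: across genes, its log2 CPM correlated at r = 0.964 and 0.963 with replicates 1 and 3 of its group. The members were mostly thin, with a median of 31.2 counts per library for plastid and 28.8 for mitochondrial rows, and 57 of 72 and 11 of 14 averaged under 100 counts per library.

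The annotation at hand names organelle genes by other identifiers, and none of the 86 members matched it by locus tag. Gene names were therefore taken for 5 plastid members, from notes on nuclear genes that cite them, and the others are given by identifier. These 5 are ATCG00670, ATCG00660, ATCG00750, ATCG00430 and ATCG00530. ATCG00670 is the plastid-encoded proteolytic subunit of the Clp protease, which degrades proteins in the stroma. ATCG00660 and ATCG00750 are the ribosomal proteins L20 and S11. ATCG00530 is a CemA-like protein related to proton extrusion. A note on the nuclear gene AT5G11770 calls ATCG00430 photosystem II reaction center protein G. That name was not checked, and the row is not read here as a photosystem II gene. A split by function, by rRNA, tRNA and protein-coding rows, or by transcript length was not made.

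Counts of either genome were concentrated on few rows. ATMG00020 held 59.2% and ATMG01390 35.1% of the mitochondrial counts, 94.3% together. In the plastid set the most abundant row, ATCG00490, held 16.02%, ATCG00280 held 9.83% and ATCG00020 held 8.64%. A mitochondrial total is thus nearly the level of a pair of rows, and a plastid total is spread over many. Whether that mitochondrial pair is rRNA could not be told from the annotation at hand, so the total cannot be read as mitochondrial mRNA.

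Notes on nuclear genes of chromosome 2 cite 52 of the 152 mitochondrial rows, as the parent of a pseudogene or as a protein match. Of those 52 rows, 43 had no count, the highest sum was 53 and none was a member. Of the other 100 rows, 57 had no count and 14 were members. Reads that match both a mitochondrial gene and its nuclear copy could have been dropped or split in counting, so values of mitochondrial rows are uncertain where a copy exists.

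Shade in bbx28-5 came with more captured mitochondrial RNA, most of it on ATMG00020 and ATMG01390. Mitochondrial rows held 0.112%, 0.137% and 0.0919% of all counts in shade, against 0.0741%, 0.0586% and 0.0645% in white light. The groups did not overlap, and the ratio of their means was 1.73, or 1.55 without replicate 2 of bbx28-5 in shade. In Col-0 the shares were 0.0879%, 0.101% and 0.0747% in shade and 0.0701%, 0.0692% and 0.0763% in white light, groups that overlapped. In bulk tissue, more cells rich in mitochondria, more mitochondrial RNA per cell and more of it captured by poly(A) selection cannot be told apart.

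Plastid rows held 0.0663%, 0.0887% and 0.0715% of counts in bbx28-5 shade libraries and 0.0752%, 0.0616% and 0.0627% in bbx28-5 white light libraries. In Col-0 they held 0.0701%, 0.0720% and 0.0606% in shade and 0.0572%, 0.0606% and 0.0617% in white light. Plastid shares overlapped in all 4 pairs of groups. Counting error was small beside this spread: the widest Wilson 95% interval reached 0.00176 percentage points for plastid and 0.00219 for mitochondrial shares to either side. Such intervals cover counting error only.

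The ratio of mitochondrial to plastid counts was 1.69, 1.55 and 1.29 in bbx28-5 in shade, against 0.985, 0.950 and 1.03 in bbx28-5 in white light. In Col-0 it was 1.25, 1.41 and 1.23 in shade and 1.23, 1.14 and 1.24 in white light. In white light the 3 bbx28-5 libraries lay below the 3 Col-0 libraries, with means of 0.988 and 1.20, and in shade the genotypes overlapped. No test was run on these sums.

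**Figure D1:**
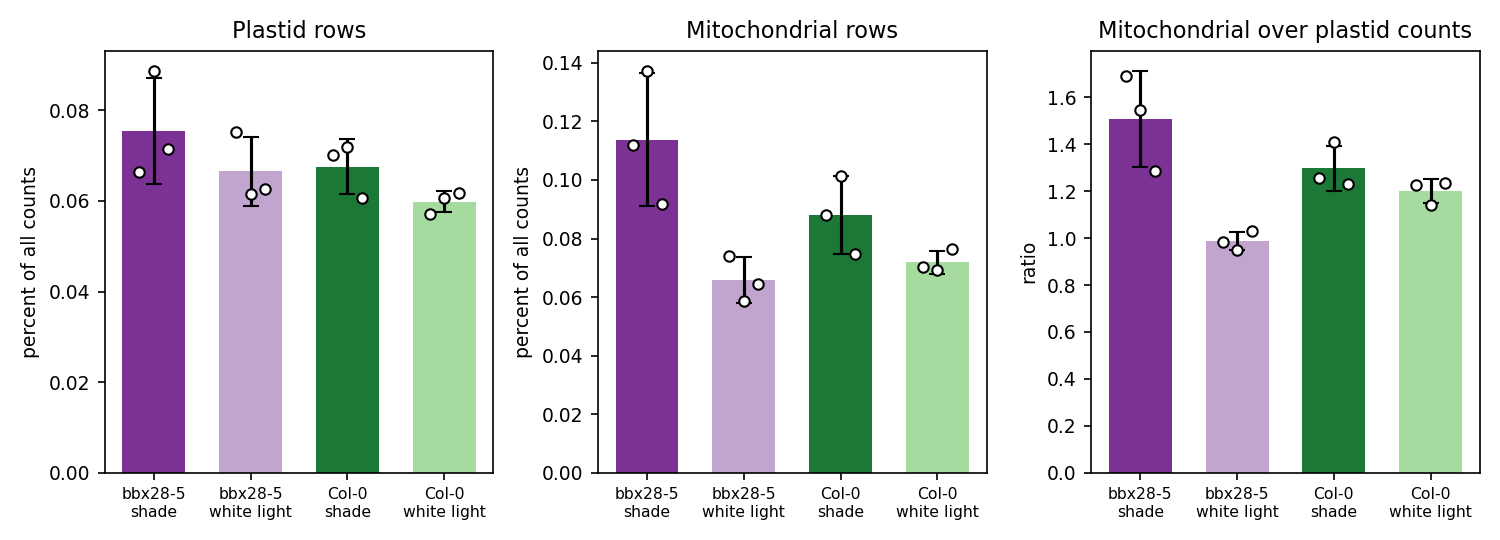
Percent of all counts on plastid rows (left) and mitochondrial rows (middle), and the ratio of mitochondrial to plastid counts (right). Points are the 3 libraries of each group, bars the mean and error bars the SD. The mitochondrial bar of bbx28-5 in shade has its lowest library, 0.0919%, above the highest in bbx28-5 white light, 0.0741%.

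Gene by gene, shade in bbx28-5 raised all 14 mitochondrial rows (edgeR's quasi-likelihood test, Benjamini-Hochberg adjusted p under 0.05 over 19711 genes). No mitochondrial row fell, none did so at an unadjusted p under 0.05, and DESeq2 also called 14 higher and 0 lower. Among all genes tested, 34.4% were called higher and 33.1% lower in this comparison. The median log2 change was 1.16, with a range of 1.00 to 3.62, against 0.00066 over all genes. Rows were kept by their counts summed over all libraries, bbx28-5 in shade included. Without that group ATMG00690, ATMG01380, ATMG00660 and ATMG00650 would not have reached the minimum sum. The count of 14, the median and the top of the range, which is ATMG00690, thus partly follow from the choice of rows. Without replicate 2 of bbx28-5 in shade 13 of the 14 were called, with a median of 1.07. Scaled to total counts, 11 of the 14 were called higher and their median was 0.81, while the median of all genes moved to -0.34. Scaled instead to the sum of the mitochondrial counts, 1 row was called and the median was 0.04.

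The most abundant row, ATMG00020, had 747, 1044 and 619 CPM in bbx28-5 in shade, against 410, 317 and 346 CPM in bbx28-5 in white light. All 3 shade libraries lay above all 3 white light libraries (log2 change 1.17 ± 0.172 SE, adjusted p = 3.23e-05). In Col-0 it had 515, 589 and 424 CPM in shade and 387, 388 and 426 CPM in white light. Those groups overlapped, and the log2 change of 0.35 ± 0.17 did not pass (adjusted p = 0.0934).

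ATMG01390 ran beside it, with 461, 592 and 370 CPM in shade and 241, 204 and 227 CPM in white light in bbx28-5 (log2 change 1.08 ± 0.164, adjusted p = 4.15e-05). Col-0 had 271, 360 and 252 CPM in shade and 244, 215 and 249 CPM in white light (log2 change 0.32, adjusted p = 0.107). Each Col-0 shade library was above the white light libraries, by a margin smaller than the spread among the shade libraries.

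ATMG00690 is described because of its size, a choice made after its values were seen. It had 27, 26 and 30 counts (2.94, 3.0 and 2.77 CPM) in bbx28-5 in shade, against 5, 2 and 2 counts in bbx28-5 in white light. Col-0 libraries had 11, 12 and 9 counts in shade and 2, 3 and 4 counts in white light. The fitted log2 change was 3.62 ± 0.346 in bbx28-5 (adjusted p = 4.23e-07) and 1.83 ± 0.41 in Col-0 (adjusted p = 0.00152), and rests on white light libraries with 2 to 5 counts. It was the row still called in bbx28-5 when scaled to the mitochondrial sum, at a log2 change of 2.54. Its calls in both genotypes held in 20 of 20 alternative settings. ATMG00690 reached the minimum sum for members only through its counts in bbx28-5 in shade. The settings all used the row so chosen, so they do not test that choice.

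**Figure D2:**
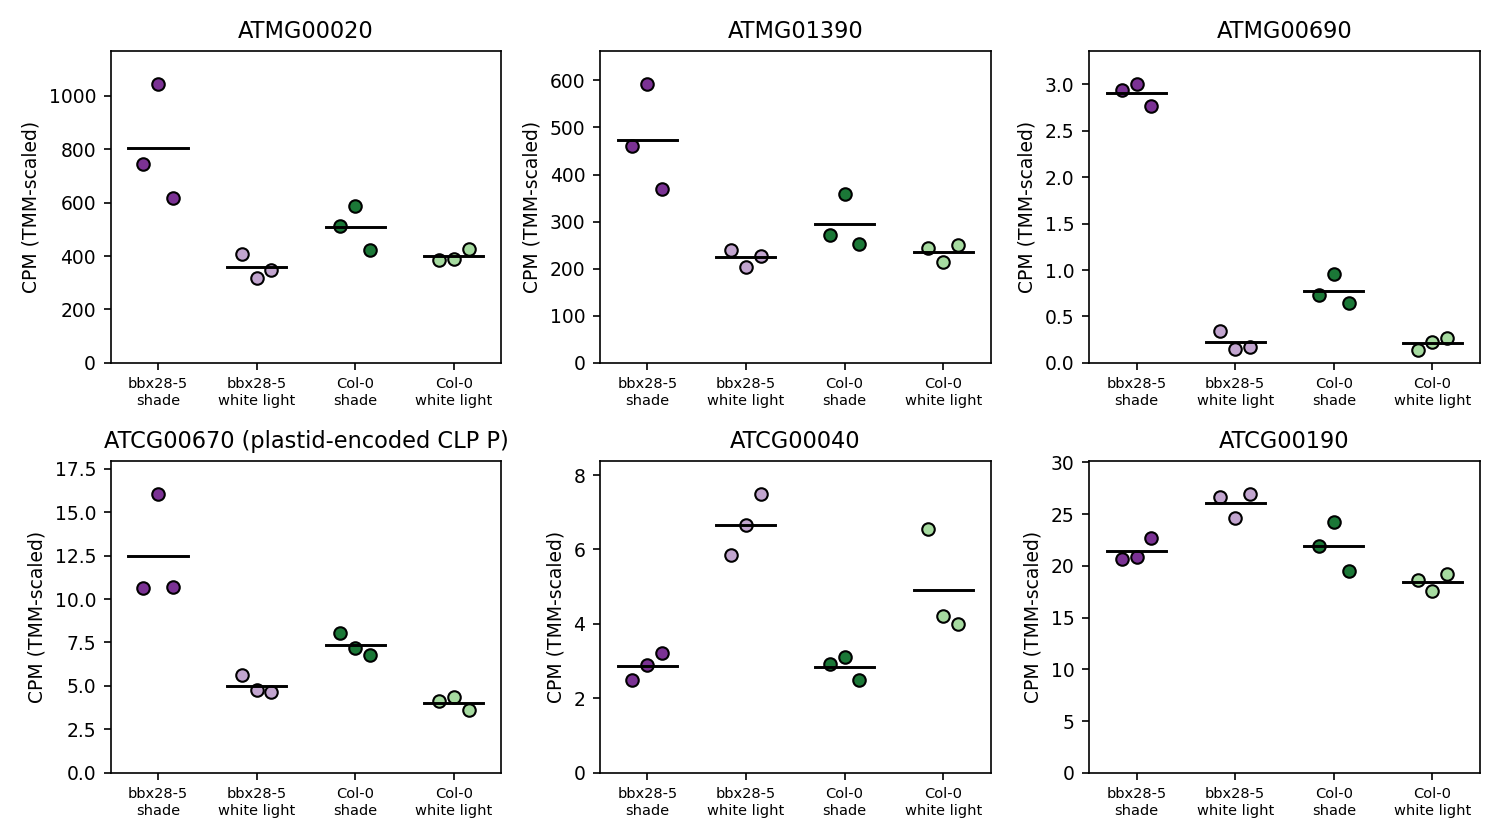
TMM-scaled CPM of 6 organelle-encoded rows in each library, with lines at the group means and axes from 0. The 3 mitochondrial rows (top) and the Clp protease subunit ATCG00670 are highest in bbx28-5 in shade, ATCG00040 is low in shade in both genotypes, and ATCG00190 is highest in bbx28-5 in white light.

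In Col-0, shade raised 3 of 14 mitochondrial rows and lowered 0 (0 at an unadjusted p under 0.05; DESeq2 called 2 higher and 0 lower), where 29.0% of all genes rose and 30.4% fell. The median log2 change was 0.43 against -0.02 over all genes, and all 14 values were above 0. The count of 3 became 7 without Col-0 shade replicate 3 and also 7 without bbx28-5 shade replicate 2. All 14 rows were called higher in bbx28-5, so that the 3 called in Col-0 were among them was fixed in advance.

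The plastid rows called in shade were mostly higher. In bbx28-5 in shade 23 of 72 rows rose, 31.9% of them beside 34.4% of all genes. Only 4 fell, 5.56% of them beside 33.1% of all genes. The median log2 change was 0.31, and 49 of 72 values were positive. Without bbx28-5 white light replicate 3 the count of rows called was 17 rather than 27, and without bbx28-5 shade replicate 2 it was 19. With total counts as the scale, 12 rose and 8 fell and the plastid median was -0.03, beside the all-gene median of -0.34. In Col-0, 10 plastid rows rose and 2 fell, the median was 0.32 and 54 of 72 values were positive. That count of 12 fell to 7 without Col-0 white light replicate 3, and to 7 without Col-0 shade replicate 2. These were 13.9% and 2.78% of the plastid rows, beside 29.0% of all genes higher and 30.4% lower.

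Across both genotypes, 6 plastid rows were higher in shade, 2 were lower, ATCG00040 and ATCG00300, and ATCG00190 was called in opposite directions. The share of all genes called in both genotypes was not computed, so these counts are not read as a trait of the plastid rows.

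The Clp protease subunit ATCG00670 rose in both genotypes. It had 10.7, 16.04 and 10.7 CPM in shade, against 5.65, 4.77 and 4.65 CPM in white light in bbx28-5 (log2 change 1.30 ± 0.178, adjusted p = 1.61e-05). In Col-0 the values were 8.07, 7.16 and 6.77 CPM in shade, against 4.11, 4.38 and 3.59 CPM in white light (log2 change 0.87 ± 0.183, adjusted p = 0.000956). Neither pair overlapped, and both calls held in 20 of 20 alternatives, the scaling to plastid counts included (0.77 in bbx28-5 and 0.64 in Col-0).

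Other members with a product in the notes did not move as a set. ATCG00530, the CemA-like protein, had 3.37, 7.62 and 6.18 CPM in shade and 4.02, 3.11 and 3.53 CPM in white light in bbx28-5. The groups overlapped (log2 change 0.68, adjusted p = 0.0399), and the call was lost in 8 of 20 alternatives, among them the omission of bbx28-5 shade replicate 2 (0.43, adjusted p = 0.149) or 3 (0.60, adjusted p = 0.115), bbx28-5 white light replicate 2 (0.59, adjusted p = 0.117) or 3 (0.68, adjusted p = 0.0814), or Col-0 white light replicate 1 (0.66, adjusted p = 0.0578). In Col-0 its log2 change was -0.13 (adjusted p = 0.69). The ribosomal protein rows did not pass in either genotype: L20 had log2 changes of -0.64 in bbx28-5 and 0.51 in Col-0, and S11 of -0.12 and 0.60. ATCG00430 was at 0.41 in bbx28-5 and 0.01 in Col-0 (adjusted p = 0.16 and 0.979).

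ATCG00040 fell in both genotypes. It had 2.50, 2.89 and 3.23 CPM in shade, against 5.85, 6.67 and 7.49 CPM in white light in bbx28-5 (log2 change -1.20 ± 0.221, adjusted p = 0.000247). Col-0 had 2.93, 3.10 and 2.49 CPM in shade and 6.54, 4.22 and 3.99 CPM in white light (log2 change -0.79 ± 0.213, adjusted p = 0.00527). Every shade library lay below every white light library of its genotype, and both calls held in 20 of 20 alternatives. ATCG00300 fell by 0.68 in bbx28-5 and by 0.56 in Col-0 on the log2 scale (adjusted p = 0.0193 and 0.0371), calls that were lost in 3 and 8 of 20 alternatives. For it, leaving out bbx28-5 white light replicate 1 or 2 or bbx28-5 shade replicate 1 ended the call in bbx28-5, and leaving out Col-0 white light replicate 2 or 3, Col-0 shade replicate 2 or 3 or bbx28-5 white light replicate 2 ended that in Col-0.

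**Figure D3:**
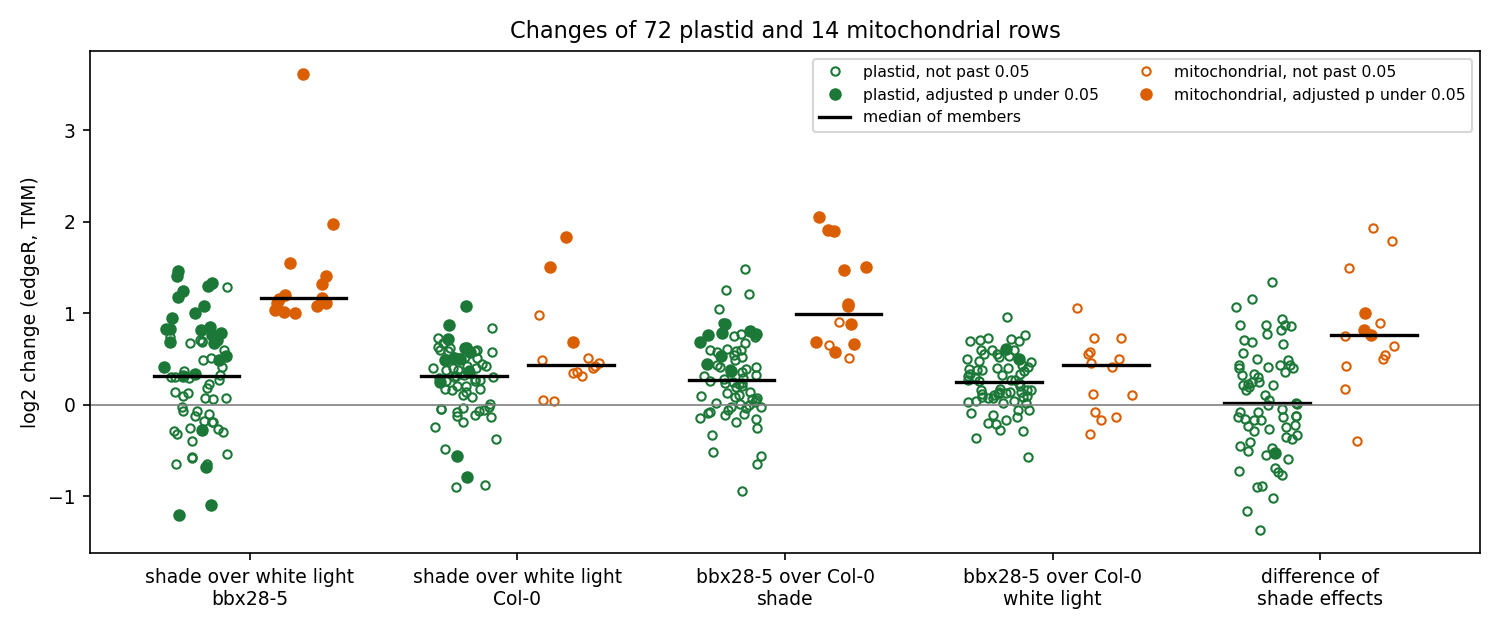
Log2 change of each of the 72 plastid rows (green) and 14 mitochondrial rows (orange) in 5 comparisons. Filled points passed an adjusted p of 0.05, open points did not, and black lines are medians. All 14 mitochondrial points are filled and lie at 1.00 or above for shade in bbx28-5, while plastid points spread to both sides of 0.

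Between genotypes in shade, mitochondrial rows were higher in bbx28-5. Here 11 of 14 rows were called higher than in Col-0 and 0 lower (0 at an unadjusted p under 0.05; DESeq2 gave 11 and 0), where 20.9% of all genes were higher and 14.5% lower. The median log2 difference was 0.99 beside 0.03 over all genes, and all 14 were positive. Keeping rows by sums that include bbx28-5 in shade could favour this direction too. Without Col-0 shade replicate 3 the count was 7, and without bbx28-5 shade replicate 2 it was 11. By total counts it was 7, with a median of 0.69, beside an all-gene median of -0.27.

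In white light no mitochondrial row was called between the genotypes by edgeR or DESeq2, with 3 higher and 0 lower at an unadjusted p under 0.05. Of all genes, 3.8% were called higher and 6.08% lower. The median was 0.44, and 10 of 14 were positive. The most abundant row, ATMG00020, was at -0.16. The mean mitochondrial share was 0.0657% in bbx28-5 and 0.0719% in Col-0, in groups that overlapped. Without bbx28-5 shade replicate 2 the count of rows called was 1. ATMG01360 was among the rows that differed in shade, with 7.94, 9.12 and 8.21 CPM in bbx28-5, against 3.87, 2.78 and 2.21 CPM in Col-0 (log2 difference 1.5 ± 0.192, adjusted p = 6.33e-05). In white light it had 3.34, 2.80 and 3.36 CPM in bbx28-5 and 2.09, 2.23 and 2.40 CPM in Col-0 (0.50, adjusted p = 0.185). Its groups did not overlap in either light, and its call in shade held in 20 of 20 alternatives.

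Among plastid rows, 9 of 72 were higher in bbx28-5 in shade, 12.5% of them beside 20.9% of all genes, and 0 were lower, beside 14.5% (0 at an unadjusted p under 0.05; DESeq2 gave 11 and 0). The median was 0.27, and 54 were positive. The count was 5 without Col-0 shade replicate 3 and 20 without bbx28-5 shade replicate 1, and it was 9 without bbx28-5 shade replicate 2. By total counts 2 were higher and 1 lower, with a median of -0.03 beside the all-gene median of -0.27. The most abundant row, ATCG00490, had 124, 227 and 137 CPM in bbx28-5 in shade, against 97.5, 105 and 76.7 CPM in Col-0 in shade. The groups did not overlap, and replicate 2 of bbx28-5 was far above the rest (log2 difference 0.81 ± 0.213, adjusted p = 0.00987). The call was lost by total counts (0.49, adjusted p = 0.0607), by scaling to plastid counts (0.31, adjusted p = 0.134) and without Col-0 shade replicate 3 (0.67, adjusted p = 0.0549).

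In white light 2 plastid rows were higher in bbx28-5 and 0 lower, beside 3.8% of all genes higher and 6.08% lower. The 2 were 2.78% of the plastid rows. At an unadjusted p under 0.05 the counts were 9 and 0, and DESeq2 called 2 and 0. The median was 0.25, and 60 of 72 values were positive. Without bbx28-5 shade replicate 2, which alters the shared estimate of spread, the count was 7. The 2 rows were ATCG00120 and ATCG00190. ATCG00120 had 23.1, 22.0 and 23.2 CPM in bbx28-5, against 14.4, 17.4 and 12.9 CPM in Col-0 (log2 difference 0.61 ± 0.128, adjusted p = 0.00796). All bbx28-5 libraries lay above all Col-0 libraries, and the call was lost under scaling to plastid counts (0.45, adjusted p = 0.101).

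The difference between genotypes in the response to shade was tested as an interaction, the log2 effect of shade in bbx28-5 less its effect in Col-0. Here 3 of 14 mitochondrial rows were higher, ATMG00020, ATMG01390 and ATMG01360, and 0 lower (0 at an unadjusted p under 0.05; DESeq2 gave 4 and 0), beside 6.52% of all genes higher and 3.79% lower. The median was 0.76 beside 0.05 over all genes, and 13 of 14 were positive. The choice of rows, by sums that include bbx28-5 in shade, could also favour positive values here. These calls were at the edge of the threshold. None was left without any 1 of the white light libraries of either genotype or without Col-0 shade replicate 3, and 1 was left without Col-0 shade replicate 1. By total counts none was called, at a median of 0.46 beside an all-gene median of -0.25.

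Among plastid rows 0 were higher (5 at an unadjusted p under 0.05; DESeq2 gave 1) and 1 lower, ATCG00190, with a median of 0.01. It had 20.7, 20.9 and 22.7 CPM in shade, against 26.7, 24.6 and 26.9 CPM in white light in bbx28-5. In Col-0 it had 21.9, 24.3 and 19.5 CPM in shade and 18.6, 17.6 and 19.2 CPM in white light. Neither pair overlapped, and the difference of effects was -0.53 ± 0.143 (adjusted p = 0.0325). Its call was lost in 10 of 20 alternatives, and no plastid row was called without any 1 of the Col-0 white light libraries, Col-0 shade replicate 1 or 2, or bbx28-5 white light replicate 3. With any 1 of the bbx28-5 shade libraries left out, 3 plastid rows were called. Its rise in Col-0 (0.25, adjusted p = 0.0484) was lost in 17 of 20 alternatives, and its fall by 0.28 in bbx28-5 (adjusted p = 0.0239) was lost in 3, without bbx28-5 white light replicate 1 or 3 or bbx28-5 shade replicate 1.

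**Figure D4:**
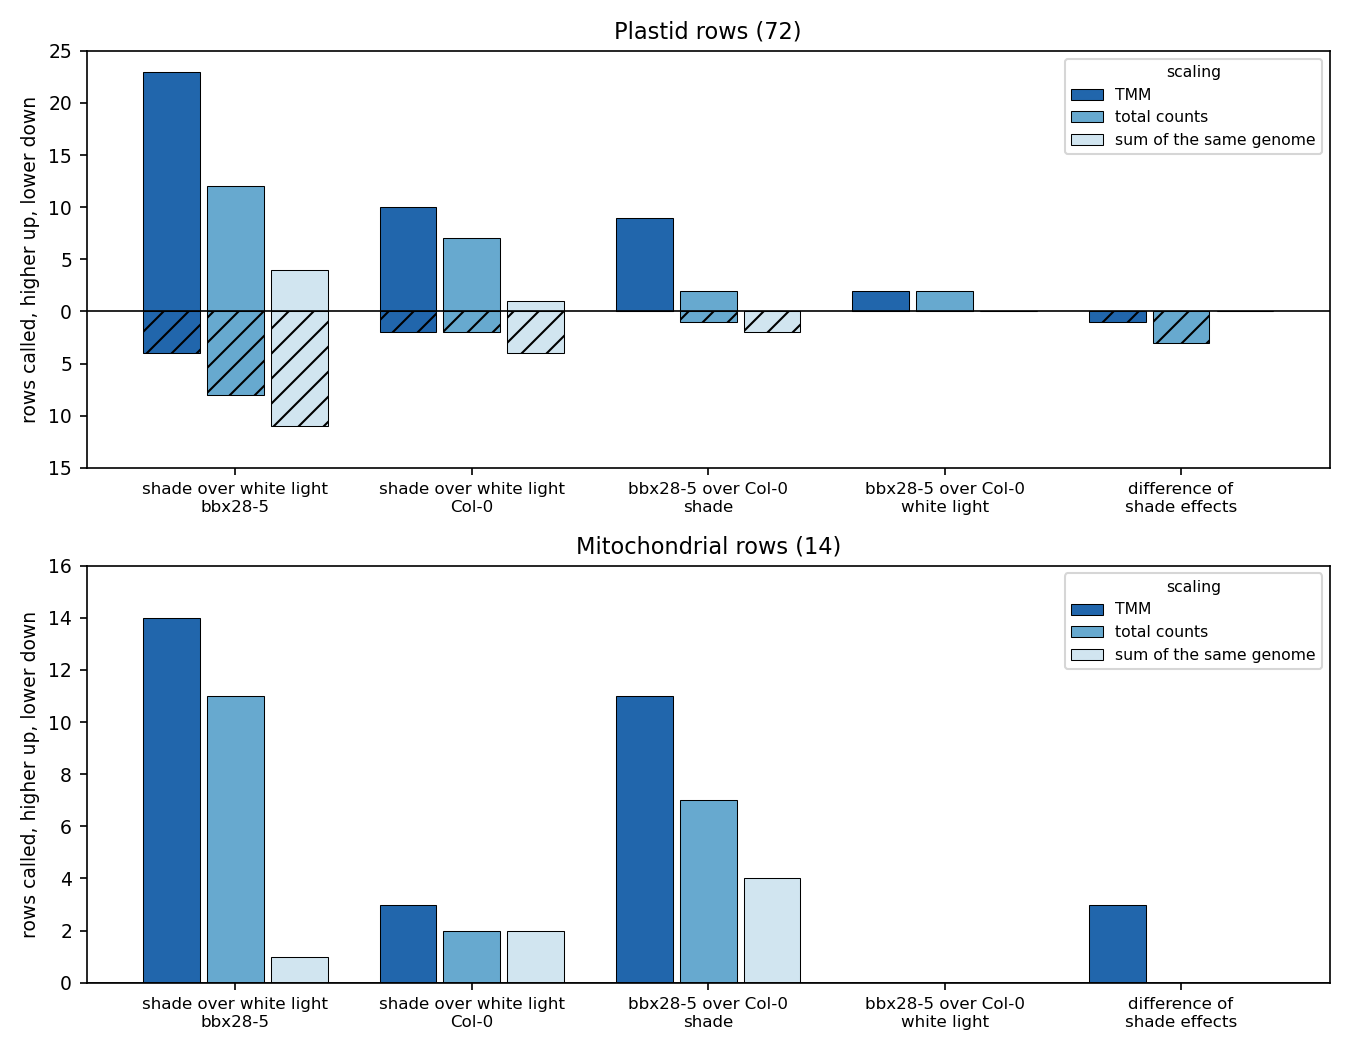
Number of plastid rows (top) and mitochondrial rows (bottom) called by edgeR at an adjusted p under 0.05, higher above the line and lower (hatched) under it, with 3 ways to scale the libraries. For shade in bbx28-5 the mitochondrial count is 14 with TMM, 11 with total counts and 1 with the sum of mitochondrial counts.

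Nuclear genes for organelle transcription were read from a list of 21, all tested: 6 sigma factors, 3 phage-type polymerases and 12 proteins associated with the plastid polymerase. In shade 4 were higher and 11 lower in bbx28-5, and 1 higher and 12 lower in Col-0, with median log2 changes of -0.45 and -0.39. Of all genes, 34.4% were higher and 33.1% lower in bbx28-5, and 29.0% and 30.4% in Col-0. By total counts 1 was higher and 15 were lower in bbx28-5. In white light 14 were higher in bbx28-5 than in Col-0 and 0 lower (0 lower at an unadjusted p under 0.05 and by DESeq2), with a median of 0.56, where 3.8% of all genes were higher and 6.08% lower. They included 10 of the 12 polymerase-associated proteins (median 0.70). In shade 12 were higher and 1 lower in bbx28-5, where 20.9% of all genes were higher and 14.5% lower, and by total counts 4 were higher and 2 lower.

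Sigma factors direct the plastid polymerase to its promoters. In shade 4 of 6 were lower and 1 higher in bbx28-5, and 5 were lower in Col-0. SIGE, which light induces, had 34.0, 25.4 and 25.0 CPM in shade, against 105, 95.4 and 100 CPM in white light in bbx28-5 (log2 change -1.83 ± 0.117, adjusted p = 6.71e-09). In Col-0 it had 43.9, 47.7 and 45.2 CPM in shade, against 69.5, 70.2 and 64.0 CPM in white light (log2 change -0.57 ± 0.112, adjusted p = 0.000513). No pair overlapped. The difference of these effects was -1.26 ± 0.161 (adjusted p = 0.000608), and all alternatives kept the call.

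SIGA and SIG2, which serve many photosynthesis and tRNA promoters, fell by 1.53 and 1.24 in bbx28-5 and by 1.20 and 1.29 in Col-0 on the log2 scale. SIG4 alone was higher in bbx28-5 in shade, at 54.3, 57.4 and 50.5 CPM, against 30.8, 33.4 and 34.4 CPM in white light (0.72, adjusted p = 2.65e-05). In Col-0 SIG4 did not pass (0.15, adjusted p = 0.224). Among the phage-type polymerases SCA3, the plastid enzyme, had 51.0, 30.4 and 55.2 CPM in bbx28-5 in shade, against 20.5, 18.9 and 21.3 CPM in Col-0 in shade (1.17, adjusted p = 0.000192). MGP3, the mitochondrial enzyme, passed in none of the comparisons, with -0.29 for shade in bbx28-5 and -0.23 in Col-0. AT5G15700, which serves both organelles, fell in shade by 0.45 in bbx28-5 and by 0.63 in Col-0 on the log2 scale (adjusted p = 0.0284 and 0.00434). The call in bbx28-5 was lost without bbx28-5 shade replicate 2 (-0.28, adjusted p = 0.0815) or bbx28-5 white light replicate 2 (-0.40, adjusted p = 0.0902) or 3 (-0.46, adjusted p = 0.0556).

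**Figure D5:**
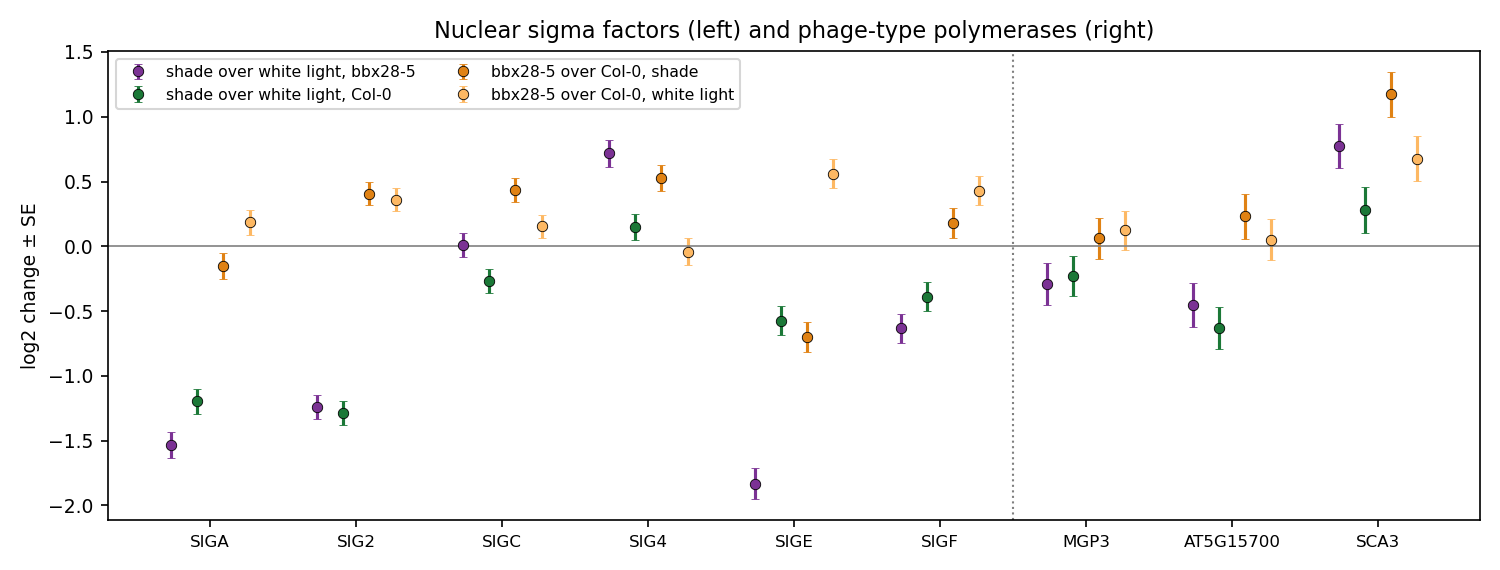
Log2 change with its standard error of 6 nuclear sigma factors and 3 phage-type polymerases in 4 comparisons. SIGE has the lowest value for shade in bbx28-5, at -1.83, and SCA3 the highest between genotypes in shade, at 1.17.

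Of 7 nuclear genes for organelle RNA decay and stability, 1 was higher and 4 lower in shade in bbx28-5, and 2 higher and 5 lower in Col-0, beside the same shares of all genes (34.4% and 33.1% in bbx28-5, 29.0% and 30.4% in Col-0). Without bbx28-5 shade replicate 2 the counts for bbx28-5 were 2 and 5. AT5G14580, the mitochondrial polynucleotide phosphorylase, which degrades RNA from its end, had 2.50, 3.58 and 3.14 CPM in shade, against 9.53, 10.7 and 8.44 CPM in white light in bbx28-5. It had 3.27, 4.06 and 4.06 CPM in shade, against 10.5, 10.8 and 9.72 CPM in white light in Col-0. Its log2 changes were -1.64 and -1.45 (adjusted p = 9.99e-07 and 1.88e-06), and its groups did not overlap. RNEE/G, the plastid ribonuclease E, fell by 0.98 in bbx28-5 and by 0.59 in Col-0 on the log2 scale. EMB2730, an organelle exoribonuclease, rose by 0.78 in bbx28-5 and by 0.88 in Col-0.

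Nuclear subunits of the plastid complexes were read from 31 genes. In shade 8 were higher and 8 lower in bbx28-5, while 0 were higher and 20 lower in Col-0 (1 higher at an unadjusted p under 0.05; DESeq2 called 0 higher). The counts in bbx28-5 are below the 34.4% of all genes higher and 33.1% lower, and in Col-0 29.0% of all genes were higher and 30.4% lower. Between genotypes in shade 19 were higher and 0 lower in bbx28-5 (0 lower at an unadjusted p under 0.05 and by DESeq2). Of all genes, 20.9% were higher and 14.5% lower in that comparison. By total counts, the counts for the 31 genes were 2 higher and 16 lower for shade in bbx28-5 and 5 higher and 2 lower between genotypes. Without bbx28-5 shade replicate 2 they were 7 higher and 17 lower for shade in bbx28-5, and 19 higher and 3 lower between genotypes. For 17 nuclear subunits of the mitochondrial complexes, 4 were higher and 8 lower in shade in bbx28-5, and 1 higher and 9 lower in Col-0, against the same shares of all genes. By total counts they were 1 higher and 12 lower in bbx28-5, and without bbx28-5 shade replicate 2 they were 5 and 11.

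Of other RNA, the sum of nuclear rRNA rows was higher in shade in bbx28-5, as was the mitochondrial share, while the root marker sum was lower. The rRNA values are counts per M of total counts, without TMM factors, and are not on the scale of the root marker CPM below. The 4 nuclear rRNA rows summed to 340 to 779 in bbx28-5 in shade and 196 to 266 in bbx28-5 in white light. In Col-0 they summed to 278 to 392 in shade and 250 to 286 in white light. Replicate 2 of bbx28-5 in shade held the 779 and also the highest mitochondrial and plastid shares. On the same scale tRNA rows held 3.30 to 4.32 in shade and 2.62 to 2.90 in white light in bbx28-5. They held 2.90 to 4.27 in shade and 2.23 to 2.64 in white light in Col-0, so they were higher in shade in both genotypes. Small nuclear RNA rows (2.72 to 17.0 against 2.82 to 3.79) and small nucleolar RNA rows (62.6 to 95.1 against 57.4 to 63.9) overlapped in bbx28-5. Root markers, 14 genes, summed to 1712 to 1799 CPM in bbx28-5 in shade and 2935 to 3078 CPM in bbx28-5 in white light, against 2498 to 2788 CPM in shade and 3441 to 3758 CPM in white light in Col-0. PYK10, a beta-glucosidase gene of roots, held 93.2% of the counts on these genes. The other 13 summed to 160 to 167 CPM in bbx28-5 in shade and 167 to 188 CPM in bbx28-5 in white light, against 177 to 221 CPM in shade and 202 to 235 CPM in white light in Col-0. Of the 14, 3 were higher and 7 lower in shade in bbx28-5, beside 34.4% and 33.1% of all genes, and 1 was higher and 5 lower in bbx28-5 than in Col-0 in shade, beside 20.9% and 14.5%. All 14 root markers had counts, except that the iron transporter gene IRT1 had 0 in bbx28-5 in shade and a sum of 3 in Col-0 in shade. Without bbx28-5 shade replicate 2, the counts between genotypes in shade were 0 higher and 4 lower. The part of rRNA and of root tissue in the organelle values was not tested.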

How the data were processed

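The authors deposited raw counts of reads per gene for 12 libraries. Per the submitters' processing notes, FastQC, HISAT, SAMtools, HTSeq and edgeR were used on the TAIR10 build, with no versions; whether counting used strand is not stated in these sources. The deposited filtered table holds log2 values (log2 CPM) for 19724 genes and served only as another choice of genes. From the counts, genes passing edgeR's expression filter (19711, all 86 members among them) were fitted with edgeR 4.0.16 in R 4.3.3: TMM factors, 4 group means, quasi-likelihood tests, Benjamini-Hochberg adjustment over all of them, threshold 0.05. DESeq2 1.42.0 was an alternative. On simulated counts (200 genes changed, shade in Col-0, 19711 genes) the fit recovered 36% of changes of 0.6, 78% of 1, 100% of 2 and 98% of 3 on the log2 scale, with 7.69% false calls.

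The members and gene lists were chosen with earlier results of these data known. Named rows were the 3 largest rises and falls per genome and comparison whose mean log2 CPM was 1 or more, of which some are printed. The rows with a product in the notes and the most abundant rows were added after their values were seen. The functional groups, the rRNA and tRNA split, levels per length, genes named by symbol and promoter sequences planned for the organelle genomes were not used, because the annotation (TAIR10.1, RefSeq) did not match their identifiers. Gene symbols of nuclear genes are from that annotation. No sample column was left unused.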

Additional observations from a re-analysis of the deposited data

Results flagged for a closer look

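The effect of shade differed between bbx28-5 and Col-0, by the interaction term of edgeR's quasi-likelihood test, in 4 organelle-encoded rows. The log2 effect of shade in bbx28-5 less its effect in Col-0 was 0.82 for ATMG00020 (adjusted p = 0.0448), 0.77 for ATMG01390 (adjusted p = 0.0485) and 1.00 for ATMG01360 (adjusted p = 0.0418), all mitochondrial. It was -0.53 for the plastid row ATCG00190 (adjusted p = 0.0325). Over the 20 alternative settings adjusted p ranged from 0.00429 to 0.953 for ATMG00020, from 0.0065 to 0.908 for ATMG01390, from 0.0165 to 0.591 for ATMG01360 and from 0.00334 to 0.0821 for ATCG00190.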

How the results depend on the processing

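Scaling each library to the sum of its own genome called 15 plastid rows for shade in bbx28-5 (4 higher and 11 lower, 4 of each among those called with TMM), 1 mitochondrial row, and 5 plastid rows for shade in Col-0 (1 higher and 4 lower). It called 0 plastid rows for genotype in white light, 4 mitochondrial and 2 plastid rows for genotype in shade (the 2 both lower and none of the 9 called with TMM), and 0 of either for the interaction. Under it the log2 change reversed to -0.0614 for ATMG01390, -0.0577 for ATMG00060, -0.0084 for ATMG00640 and -0.19 for ATCG00120 (shade in bbx28-5), to -0.0321 for ATMG00020, -0.0889 for ATMG00030 and -0.0884 for ATCG00120 (genotype in shade), and to -0.0334 for ATMG01390 (interaction). That scaling removes any change common to a genome by construction. Total counts gave 3 plastid and 7 mitochondrial rows for genotype in shade and 3 plastid and 0 mitochondrial rows for the interaction, and reversed ATCG00120 to -0.0102 (shade in bbx28-5). DESeq2 gave 2 plastid rows for the interaction. The cause was not tested.

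Leaving out 1 library at a time gave 7 to 16 plastid and 2 to 7 mitochondrial rows for shade in Col-0, 17 to 27 and 11 to 14 for shade in bbx28-5, 2 to 7 and 0 to 1 for genotype in white light, 5 to 20 and 7 to 13 for genotype in shade, and 0 to 3 and 0 to 4 for the interaction. Mean plastid shares ranged over 0.0689 to 0.0801% in bbx28-5 in shade, 0.0622 to 0.0690% in bbx28-5 in white light, 0.0654 to 0.0710% in Col-0 in shade and 0.0589 to 0.0612% in Col-0 in white light. Mean mitochondrial shares ranged over 0.102 to 0.125%, 0.0615 to 0.0693%, 0.0813 to 0.0946% and 0.0696 to 0.0732% in the same groups. Without the most abundant row, and then without the 2 most abundant (added after seeing the data), plastid shares were 0.0620 and 0.0545% in bbx28-5 in shade, 0.0567 and 0.0502% in bbx28-5 in white light, 0.0579 and 0.0515% in Col-0 in shade, and 0.0496 and 0.0435% in Col-0 in white light. Mitochondrial shares were 0.0468 and 0.00727%, 0.0276 and 0.00381%, 0.0352 and 0.00476%, and 0.0289 and 0.00350% in the same groups.

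Replicate numbers did not pair the samples: deviations of same-numbered libraries correlated at -0.123 to 0.0975 over 18 pairs, 0 of them over 0.1. With the replicate number as a block, 5 mitochondrial rows were called for shade in Col-0 and 0 for the interaction. Among log2 changes of single named genes over all alternatives, 2194 stayed on their side of the threshold, 170 lost it, 26 gained it and 9 called ones reversed. The alternative without rRNA and tRNA rows was not run, as these rows could not be named. Most members averaged under 100 counts per library, which limits what could be detected for them.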
